A study of Arabidopsis thaliana with 30 samples.

Results

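Of the 36635 features in the count table, 116 were almost without reads in wild-type hypocotyl explants at 0 h and were switched on at a later time after cutting. They were chosen by wild-type levels alone, in CPM, the count of a feature divided by the total count of its library and multiplied by 1000000. A feature was taken when its mean over the 3 wild-type libraries was below 0.5 CPM at 0 h and at least 10 CPM at 1 or more of the later times. The rule allowed at most the 300 with the highest later mean, so all 116 were kept. The change from 0 h was therefore tested between mutant groups alone, whose 15 libraries took no part in the choice. The model behind the test used all 30 libraries, so the wild type entered its filter, scaling and shared estimate of spread. Differences between genotypes, and in the change from 0 h between them, are given with their fitted values and adjusted p-values, unless a p is said to be left out. They set the mutant against the wild-type levels that chose the features, so they are descriptions and support nothing. All 116 passed the filter on low counts, which left 18526 features for the tests. Since each had a mean of at least 10 CPM in a wild-type group by the rule, the choice favoured passing, which is no result.

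Seedlings of Arabidopsis thaliana, the Col-0 wild type (Col-0 below) or the hsfa1abd-2 mutant in the same ecotype, were kept in darkness for 7 days, so both genotypes were etiolated. Hypocotyls were cut with a scalpel, and about 50 explants were pooled per replicate at 0, 0.5, 1, 3 and 24 h, with 3 biological replicates for each of 10 combinations. The 0 h explants also carry the label wounded, and seedlings left uncut were not analysed here. Hours after cutting, hour of the day and, at 24 h, tissue age cannot be told apart. The explant is a mixture of whole-tissue cell types, so fewer cells with a transcript and less of it per cell cannot be told apart.

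HSFA1A, HSFA1B and HSFA1D, which give the mutant its name, are class A heat shock factors that start transcription of chaperone genes under heat in Arabidopsis. Cutting a plant organ sets off calcium, reactive oxygen and jasmonate signals, and a rapid wave of transcription follows within minutes to hours. Later, cells near the cut can re-enter division and form callus. Transcripts that are nearly absent from intact tissue and appear after a stimulus are of use as markers of a response, because little earlier RNA lies beneath the new signal.

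The features carry no gene identifier, and no name was taken from their order. The label hypocotyl and the mutated HSFA1 genes could therefore not be checked through marker genes, and no sequence or function is given. A feature is described by its rank, the first being the one with the highest wild-type mean, among those whose wild-type maximum fell at the same time. Features 9584 and 35045, counted from the first data line, are also given by number.

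The libraries held 3164714 to 4296509 counts, except for Col-0 replicate 1 of 0.5 h with 578179. At median depth 3 counts make 0.834 CPM, and in that shallow library 5.19 CPM, so a low wild-type value at 0.5 h is less precise than at other times. Counting error alone covers these limits.

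At 0 h the 116 features together held 24.8 ± 0.632 CPM in Col-0 (SD, n = 3). No count at all was found for 20 of them in the 10664959 wild-type reads at 0 h, 67 had 1 to 3 counts over the 3 libraries, and 29 had more than 3, with 5 as the highest. For the 20 without a count, the limit that 3 counts set over the group is 0.281 CPM. The rule fixed these low numbers.

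The mutant was also nearly silent at 0 h, where its libraries were not used to choose. Its 3 libraries held 37.3 to 61.7 CPM of the 116 features in sum. Here 23 features had no count, 39 had 1 to 3, and 54 had more than 3. The mean was below 0.5 CPM for 78 of 116 (67.2%) and at least 1 CPM for 13. Among all 375 tested features below 0.5 CPM in Col-0 at 0 h, 243 (64.8%) were also below it in the mutant, a share close to that of the switched-on features. Since low wild-type values chose the features, the higher sum in the mutant is given as a value only. Of the 116, 1 was called higher in the mutant at 0 h and none lower, against 0.421% and 1.45% of all tested features. The 1 called feature was rank 15 of those with their maximum at 3 h.

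In the wild type the maximum fell at 0.5 h for 33 features (28.4%), at 1 h for 23 (19.8%), at 3 h for 47 (40.5%) and at 24 h for 13 (11.2%). These sets are called the 0.5 h, 1 h, 3 h and 24 h classes. The mean level at the maximum ran from 10.1 to 512 CPM with a median of 23.3 CPM. At 0.5 h 53 features had already reached 10 CPM in Col-0. A further 15 first reached it at 1 h, another 38 by 3 h and 10 by 24 h.

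At the limit of 10 CPM, which is also that of the rule, 62 stood at or above it in Col-0 at a single time, 37 at 2 times, 14 at 3 and 3 at all 4 later times. Of the 62, 10 belonged to the 24 h class, where no later time was measured. Lower levels lasted longer, since 94, 100, 106 and 66 of the 116 had at least 1 CPM in Col-0 at 0.5, 1, 3 and 24 h. At 24 h, 31 of 33 features of the 0.5 h class were below 10% of their own maximum, as were 18 of 23 of the 1 h class and 26 of 47 of the 3 h class. The median level at 24 h was 1.51% of the maximum in the 0.5 h class, 2.24% in the 1 h class and 8.92% in the 3 h class. The 3 h class thus also held features that were still well above 0 a day after cutting, the highest at 73.8% of its maximum.

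**Figure D1:**
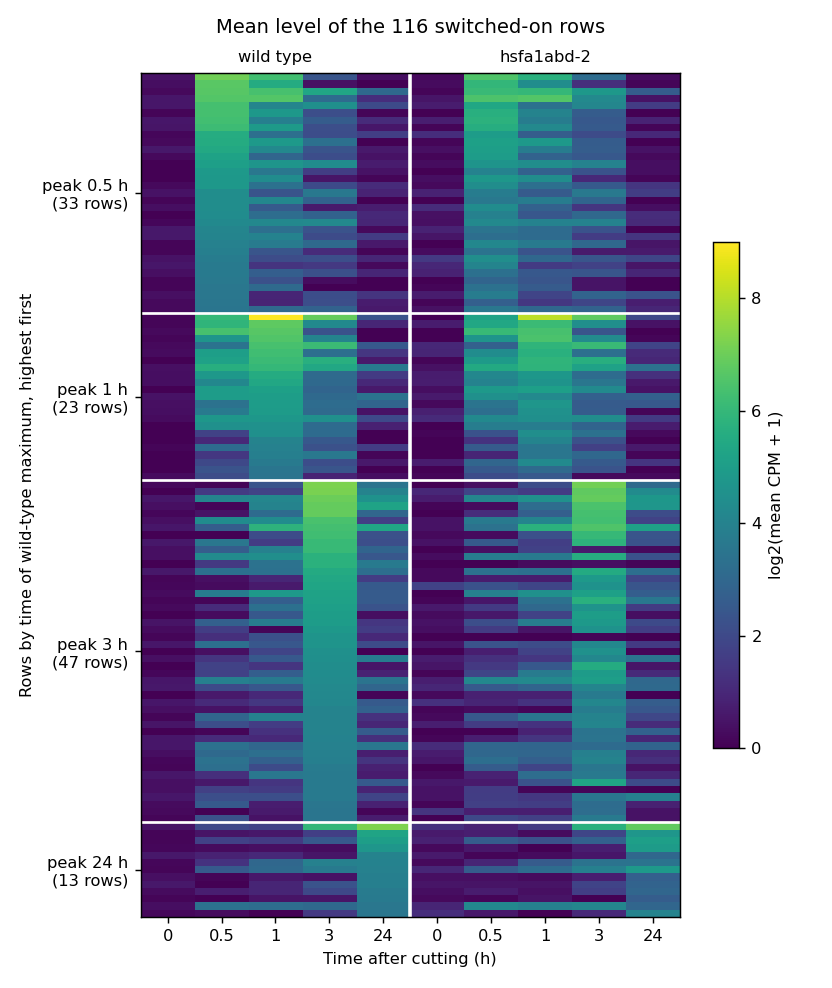
Mean level of the 116 switched-on features (rows, by class and then by wild-type level) in the 10 groups (columns, hours after cutting), as log2 of mean CPM plus 1, with the mean over 3 libraries a group. The bright blocks sit at the same time in both genotypes for 107 of 116 features, and a few lines of the 3 h class that are bright in Col-0 stay dark in hsfa1abd-2.

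The highest feature of the 0.5 h class stood at 0, 0.548 and 0.53 CPM in the wild-type libraries at 0 h and at 121, 159 and 115 CPM at 0.5 h. It remained at 86.5, 77.4 and 63.2 CPM at 1 h and was at 0, 0.256 and 0.547 CPM at 24 h, so its 24 h libraries overlapped those of 0 h. In the mutant it was at 0.241, 0 and 0.287 CPM at 0 h and at 90.9, 113 and 71.3 CPM at 0.5 h. All 3 mutant libraries at 0.5 h stood below the wild-type ones, and the mutant mean was 69.7% of the wild-type mean. In the comparison of genotypes at 0.5 h it did not pass (log2 difference -0.59, SE 0.19, edgeR adjusted p = 0.0745). Each p was adjusted over all tested features, a call needs a value below 0.05, and each SE is approximate.

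The second feature of this class had 107, 134 and 69.8 CPM at 0.5 h in Col-0 and none in any wild-type library at 24 h. In the mutant it had 58.9, 84.7 and 40.6 CPM at 0.5 h, and its libraries overlapped those of Col-0. The third had 102, 118 and 77.8 CPM in Col-0 and 58.9, 97.2 and 48.3 CPM in the mutant. This feature faded more slowly, with 38.7 ± 7.3 CPM in Col-0 at 3 h and 7.42 ± 2.58 CPM at 24 h (SD, n = 3 each).

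Rank 5 of the 0.5 h class had the lowest level in the mutant relative to the wild type among the features of this class whose libraries did not overlap. The wild type held 72.6, 95.7 and 73.6 CPM at 0.5 h and the mutant 42.6, 52.8 and 25 CPM, 49.8% of the wild-type mean. This was the only one of the 33 called lower in the mutant at 0.5 h (log2 difference -1.08, SE 0.26, edgeR adjusted p = 0.0157). The call was lost without Col-0 replicate 2 of 0.5 h (-0.89) and without mutant replicate 3 of 0.5 h (-0.82). Rank 26 was the 1 feature of the class with all mutant libraries above the wild type, at 25.8, 18.1 and 18.7 CPM against 10.4, 10.6 and 17.8 CPM. At 0 h its mutant libraries had 2.89, 1.15 and 1.43 CPM and the wild-type ones 0, 0.821 and 0.265 CPM. Neither difference passed (0.58, SE 0.30, edgeR adjusted p = 0.312 at 0.5 h, and edgeR adjusted p = 0.131 at 0 h).

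Rank 14 of the 0.5 h class had no count in any of the 6 libraries at 0 h. At 0.5 h it stood at 32.9, 25.3 and 25.2 CPM in Col-0 and at 16.3, 16.9 and 11.9 CPM in the mutant, and no library of one genotype overlapped the other. Against the limit of 3 counts over the 0 h group, its level at 0.5 h was at least 98.9-fold higher in Col-0 and at least 55.7-fold higher in the mutant.

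The 1 h class held the most abundant feature of all 116. It stood at 0, 0.274 and 0 CPM at 0 h in Col-0, at 62.3, 76.8 and 53.7 CPM at 0.5 h, and at 593, 432 and 511 CPM at 1 h. Levels were 106, 93.1 and 146 CPM at 3 h and 3.41, 3.07 and 5.47 CPM at 24 h. This 1 feature made up 20.7% of the summed wild-type level of the 116 at 1 h.

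In the mutant the same feature had no count at 0 h and stood at 321, 246 and 267 CPM at 1 h, at least 1029-fold above the limit of 3 counts over the 0 h group. All 3 mutant libraries at 1 h were below all wild-type ones, with a mean of 278 ± 38.6 CPM against 512 ± 80.5 CPM (SD, n = 3 each). The difference was -0.89 on the log2 scale (SE 0.26, edgeR adjusted p = 0.0455). This call was close to the threshold: it was lost in 14 of 30 fits that left out 1 library, with values of -1.09 to -0.77 and adjusted p = 0.0129 to 0.174 over all 30.

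The second feature of the 1 h class had 102, 109 and 114 CPM at 1 h in Col-0 and 62.9, 62.9 and 84.8 CPM in the mutant, without overlap. It was called lower in the mutant at 1 h (-0.64, SE 0.17, edgeR adjusted p = 0.0275). The call was lost without Col-0 replicate 1 (-0.68), 2 (-0.64) or 3 (-0.60) of 1 h and without mutant replicate 1 (-0.64) or 2 (-0.54) of 1 h. The third had 96, 121 and 84.4 CPM against 64.8, 88 and 92.4 CPM, and these overlapped. The third feature had no count in any of the 6 libraries at 24 h. Rank 23, the last of the class, had 7.94, 12.1 and 10.3 CPM in Col-0 at 1 h and 4.11, 5.07 and 4.88 CPM in the mutant, the lowest share of the wild type in the class at 46.4%, and just missed the threshold (-1.11, SE 0.35, edgeR adjusted p = 0.0516). Rank 20 had no count in any library at 0 h, and it stood at 13, 15.3 and 13.5 CPM in Col-0 and at 10.1, 10.4 and 11.6 CPM in the mutant at 1 h.

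Of the 23 features of this class, 10 had all mutant libraries below the wild-type ones at 1 h and none had all above. Over all tested features these shares were 14.70% and 15.17%.

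The 3 h class was the largest. Its first feature had 0, 0 and 0.297 CPM at 0.5 h in Col-0, 5.56, 3.24 and 3.45 CPM at 1 h and 161, 136 and 149 CPM at 3 h. The mutant had 0.592, 0 and 0.284 CPM at 0.5 h, 4.11, 3.38 and 2.44 CPM at 1 h and 113, 123 and 173 CPM at 3 h, and the genotypes overlapped. The feature was thus near 0 at 0.5 h and high at 3 h in both genotypes.

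The second feature of the 3 h class had no count in Col-0 at 0 h and 156, 118 and 161 CPM at 3 h, at least 517-fold above the limit of 3 counts over the 0 h group. The mutant had 2.17, 0 and 0.861 CPM at 0 h and 79, 66.3 and 190 CPM at 3 h. Mutant replicate 3 of 3 h was thus above every wild-type library and the other mutant libraries were below them all. The third feature showed the same spread, with 142, 100 and 134 CPM in Col-0 and 84.7, 89.9 and 173 CPM in the mutant.

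That library also stood apart for the 116 features as a whole. Their sum was 3000 CPM in mutant replicate 3 of 3 h, against 1992 and 1914 CPM in the other mutant libraries and 2259 to 2903 CPM in Col-0 at 3 h. At 0.5 h, mutant replicate 2 stood above its group in the same way, with 2056 CPM against 1398 and 1228 CPM. The median coefficient of variation over 3 libraries at the wild-type maximum was 40.1% in the mutant and 19.3% in Col-0 for the 3 h class, and 13.9% and 17.3% for the 1 h class.

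The 24 h class was small and led by 1 feature that made up 21.1% of the summed wild-type level of the 116 at 24 h. It had 5.19, 1.85 and 1.48 CPM at 0.5 h in Col-0, 65, 57.3 and 63.6 CPM at 3 h and 152, 179 and 128 CPM at 24 h. The mutant had 42.8, 45.3 and 66.5 CPM at 3 h and 125, 110 and 99.8 CPM at 24 h. At 24 h all mutant libraries were below the wild-type ones (-0.56, SE 0.16, edgeR adjusted p = 0.0108). The call was lost without Col-0 replicate 2 of 24 h (-0.44) and without mutant replicate 3 of 24 h (-0.48).

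The second feature of the 24 h class had 33.5, 36.4 and 42.7 CPM in Col-0 at 24 h and 30.7, 24.7 and 21.4 CPM in the mutant, below but not called (-0.65, SE 0.26, edgeR adjusted p = 0.076). The third had 27.8, 33.8 and 35.6 CPM against 24.6, 45.9 and 27 CPM, and these overlapped.

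In Col-0, 10 of the 13 features of this class first reached 10 CPM at 24 h. Rank 8 stood at 0.823, 0 and 0.251 CPM at 3 h in Col-0 and at 12.6, 13.1 and 15.9 CPM at 24 h. In the mutant it had 6.82, 5.51 and 4.6 CPM at 24 h, 40.8% of the wild-type mean (-1.39, SE 0.32, edgeR adjusted p = 0.00195). Rank 11 had 9.96, 12 and 14 CPM in Col-0 at 24 h and 6.09, 4.72 and 5.14 CPM in the mutant (-1.27, SE 0.33, edgeR adjusted p = 0.00601). Both were thus present in the mutant too, below 10 CPM and below every wild-type library. Rank 7 went the other way, with 28.3 ± 5.34 CPM in the mutant against 14.6 ± 0.985 CPM in Col-0 (SD, n = 3 each), without overlap (0.85, SE 0.35, edgeR adjusted p = 0.0865, so not passed).

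Nearly all 116 features were also called higher after cutting in the mutant, which is the readout that the rule left unused. Such a call is less than the rule asks: 60 of the 116 met both its limits in the mutant, and 22 never reached 10 CPM there. At the time of the wild-type maximum 113 of 116 were called higher in the mutant than at mutant 0 h in the edgeR fit, with p-values adjusted over all tested features. These were all 33 of the 0.5 h class, all 23 of the 1 h class, 44 of 47 of the 3 h class and all 13 of the 24 h class, so the 3 not called are ranks 12, 22 and 43 of the 3 h class. Counted by time, 84 rose at 0.5 h, 93 after 1 h, 101 after 3 h and 54 after 24 h, against 14.64%, 19.97%, 24.08% and 26.60% of all tested features. The median log2 change of the 116 was 4.35, 5.02, 5.37 and 2.13 at these times, and that of all tested features -0.03, -0.01, -0.004 and 0.07. For the first feature of each class the change in the mutant at the class's time was 8.84 (SE 0.42, edgeR adjusted p = 1.34e-16) at 0.5 h and 13.03 (SE 0.70, edgeR adjusted p = 2.42e-12) at 1 h. It was 11.95 (SE 0.44, edgeR adjusted p = 2.13e-19) for the 3 h class and 6.38 (SE 0.28, edgeR adjusted p = 1.01e-17) for the 24 h class. Starting near 0 counts, such folds move with the prior count and set no bound. The call at 3 h for rank 10 of the 3 h class, 1 of the 113, rested on 6 counts. That feature passed the filter on low counts through Col-0 alone.

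Only 2 of the 116 were called higher in the mutant at no time, ranks 12 and 22 of the 3 h class. A further 31 were called higher at all 4 times, 52 at 3 times, 21 at 2 and 10 at 1. At 1 or more times 114 were called higher, against 45.0% of all tested features. Rank 13 of the 24 h class was called lower at 1 h than at mutant 0 h (15.1% of all tested features were), and rank 22 of the 0.5 h class at 24 h (21.3%). The count at the wild-type maximum was 112 or 113 in each of 30 fits that left out 1 library.

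The time of the maximum was the same in both genotypes for 107 of 116 features, read from libraries that they do not share. How often this held over all tested features was not counted. By class, the time was the same for 31 of 33 in the 0.5 h class and 21 of 23 in the 1 h class. It was the same for 44 of 47 in the 3 h class and 11 of 13 in the 24 h class. In the mutant 22 features did not reach 10 CPM at any time, 6 of the 0.5 h class, 2 of the 1 h class, 8 of the 3 h class and 6 of the 24 h class. Another 48 reached it at a single time and 1 at all 4 later times.

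The decline after the maximum was present in the mutant as well. All 33 features of the 0.5 h class were called lower at 24 h than at 0.5 h in the mutant, and all 23 of the 1 h class were lower at 24 h than at 1 h. In the 3 h class 40 of 47 were lower at 24 h than at 3 h. The shares of all tested features called lower in these 3 contrasts of the edgeR fit were 26.5%, 26.7% and 28.0%. At 24 h the median level in the mutant was 1.70%, 2.18% and 9.49% of the mutant's own maximum in the 3 classes. The mutant maximum was not chosen by the rule.

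**Figure D2:**
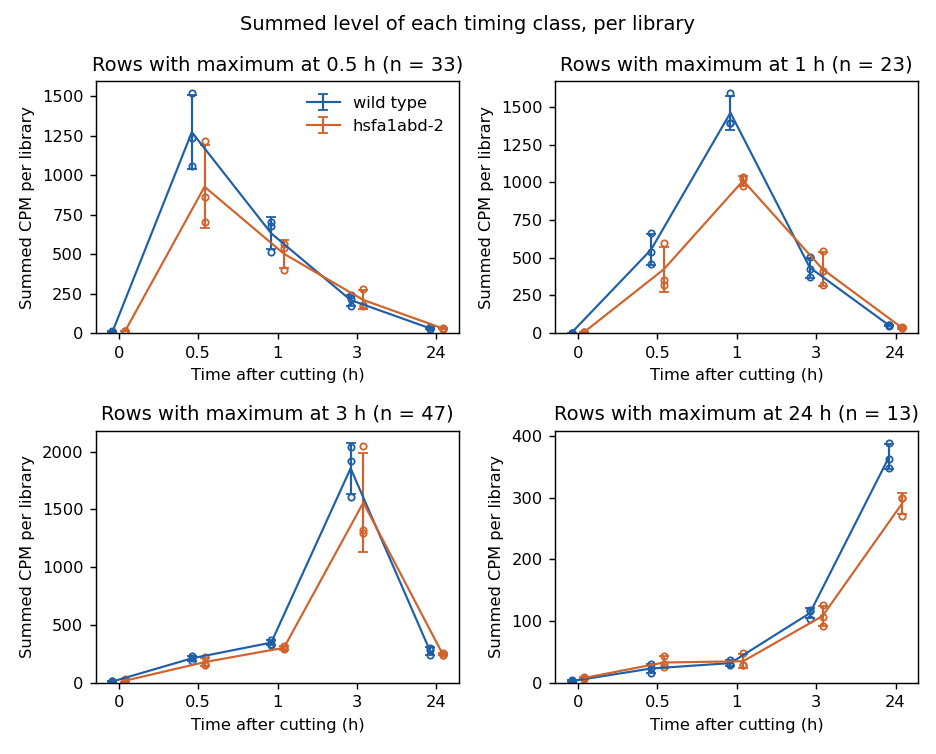
Summed CPM of the features of each class per library (open circles), with the mean and SD over 3 libraries (lines and bars), against hours after cutting in Col-0 (blue) and hsfa1abd-2 (orange). In each panel both genotypes peak at the time of the class, and at 1 h the 3 mutant libraries of the 1 h class lie at 974 to 1037 CPM, below 1396 to 1593 CPM in Col-0.

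At the time of the wild-type maximum the summed level was lower in the mutant in each class. The 0.5 h class held 1272 ± 232 CPM in Col-0 and 926 ± 262 CPM in the mutant at 0.5 h, and the 1 h class 1462 ± 113 and 1011 ± 32.9 CPM at 1 h (SD, n = 3 each). The 3 h class held 1856 ± 222 and 1560 ± 427 CPM at 3 h, and the 24 h class 366 ± 20.5 and 290 ± 17.0 CPM at 24 h (SD, n = 3 each). Libraries of the genotypes overlapped for the 0.5 h and 3 h classes. They did not for the 1 h class, nor for the 24 h class with 270 to 300 CPM in the mutant and 349 to 389 CPM in Col-0. The first feature of the 1 h class alone held 512 CPM in Col-0 and 278 CPM in the mutant at 1 h. That of the 24 h class held 153 and 111 CPM at 24 h. High wild-type levels at these times chose the features and set the classes, so nothing is read from the sums.

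Feature by feature, the median log2 ratio of mutant to wild-type mean at the wild-type maximum, with 1 CPM added to both, was -0.35 over the 116. It was -0.43 in the 0.5 h class, -0.38 in the 1 h class, -0.15 in the 3 h class and -0.56 in the 24 h class. The order of the classes rested on single libraries. The 3 h median became -0.52 without mutant replicate 3, -0.02 without mutant replicate 2, -0.07 without mutant replicate 1 and -0.30 without Col-0 replicate 2, all of 3 h. The 0.5 h median became -0.70 without mutant replicate 2 of 0.5 h. Over all tested features the medians were 0.05, 0.02, 0.05 and 0.04 at these times. The mutant mean was lower for 95 of 116 features, and the median level was 76.8% of Col-0. In 36 features all mutant libraries were below all wild-type ones, in 6 all were above, and in 74 they overlapped. The shares below were 8 of 33 in the 0.5 h class, 9 of 47 in the 3 h class and 9 of 13 in the 24 h class, beside 6.073%, 5.214% and 15.60% of all tested features at these times. Those with all mutant libraries above were 1 of 33, 3 of 47 and 2 of 13, beside 9.479%, 11.04% and 22.78%. High wild-type values at these very times chose the features, so nothing is read from these counts.

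The median ratio was therefore also read in wild-type libraries that had not chosen the features, a comparison added after the data were seen. The rule was applied to 2 replicate numbers at a time, and the mutant was set against the remaining wild-type replicate. This gave 118, 126 and 122 features with median log2 ratios of -0.29, -0.25 and -0.21, against -0.35, -0.34 and -0.36 in the libraries that chose them. Each left-out median was thus smaller in size than that of the choosing libraries, and negative over the whole set. These readings share all the mutant libraries and use a single wild-type library per time, the shallow one at 0.5 h for replicate 1. They are not independent, and the median over all tested features was not read in the left-out library, so they support nothing. Both limits of the rule were met in the left-out library by 68 of 118 (57.6%), 67 of 126 (53.2%) and 68 of 122 (55.7%). The 0 h sum in the left-out library was 42.3, 753 and 45.6 CPM, against 22.6, 26.4 and 22.3 CPM in the choosing ones. In replicate 2, 1 feature that is not among the 116 held 703 CPM of that sum, and the next highest had 2.46 CPM. For the 3 h class the median was 0.14 with replicate 2 left for reading, so it did not keep its sign.

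The same rule applied to the mutant columns found 90 features. Of these, 60 were shared, 51.7% of the wild-type list and 66.7% of the mutant list. Among the 56 found in Col-0 alone, 34 failed in the mutant because the 0 h mean was at least 0.5 CPM, 18 because no later mean reached 10 CPM, and 4 for both reasons. Among the 30 found in the mutant alone, 17 failed in Col-0 at 0 h, 12 at the later limit and 1 at both. For the 90 features at the mutant maximum, where the choice favours the mutant, the median log2 ratio of mutant to wild type was -0.13, and the mutant was lower for 58 of 90. The 7 of them with a mutant maximum at 24 h had a median of 0.43, the opposite sign to the 24 h class of Col-0.

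**Figure D3:**
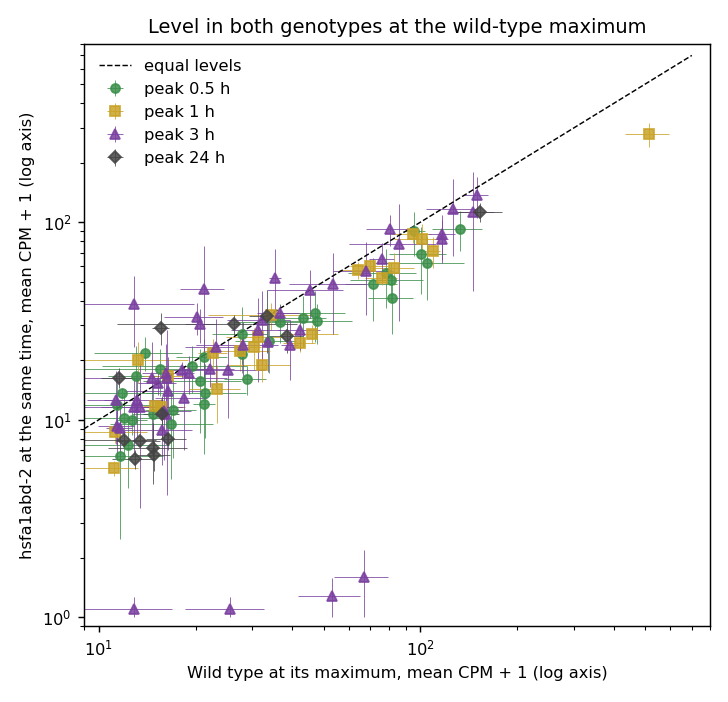
Mean CPM plus 1 in hsfa1abd-2 (vertical, log axis) against the wild type (horizontal, log axis) at the time of the wild-type maximum for the 116 features, with bars for the SD over 3 libraries, symbols for the class and a dashed line at equal levels. Most points lie near or a little below the line, and 4 features of the 3 h class lie at the bottom, with mutant means of 0.0986 to 0.587 CPM.

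At 3 h, 4 features of the 3 h class were almost absent from the mutant. They are ranks 10, 12, 22 and 43 of the class, with wild-type means at 3 h of 65.7, 52.2, 24.6 and 11.9 CPM. The mutant means at 3 h were 0.895%, 0.544%, 0.401% and 0.830% of these. The 4 were singled out by a limit of 10% of the wild-type level set after the values were seen, and the next lowest feature at its own maximum had 40.8%.

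Rank 10, feature 9584, was at 0.618, 0.274 and 0 CPM at 0 h in Col-0, at 3.46, 4.22 and 8.31 CPM at 0.5 h, at 14.5 ± 2.80 CPM at 1 h (SD, n = 3) and at 55.2, 62.1 and 79.6 CPM at 3 h. In the mutant it had no count at 0 h, 1.58, 3.38 and 2.13 CPM at 1 h and 0, 1.18 and 0.579 CPM at 3 h. All mutant libraries lay below all wild-type ones at 0.5, 1, 3 and 24 h. Over the groups at 3 h it had 785 counts in Col-0 and 6 in the mutant. The ratio in CPM was 115 and rests on those 6 counts. The feature passed the filter on low counts through Col-0 alone, so its tests in the mutant rest on few counts. In the mutant it was called higher than at 0 h at 1 h, on 24 counts (edgeR adjusted p = 0.000221). At 3 h it was called on 6 counts (edgeR adjusted p = 0.0473), and the call was lost in 14 of 30 fits without 1 library, with adjusted p = 0.0195 to 0.194 over all 30.

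Rank 12, feature 35045, had no count at 0 h in either genotype. In the wild type it stood at 0, 2.11 and 3.27 CPM at 0.5 h, at 8.73, 11.8 and 8.04 CPM at 1 h, at 41.4, 51 and 64.3 CPM at 3 h and at 5.77, 15.4 and 15.3 CPM at 24 h. In the 12 mutant libraries after 0 h it had no count at 0.5 h, then 2 counts in the 1 h group, 3 in the 3 h group and 1 in the 24 h group. The wild type had 626 counts at 3 h, a ratio in CPM of 184 that rests on the 3 mutant counts there. At 3 h the wild-type level was at least 186-fold above the limit of 3 counts over its 0 h group. The mutant did not pass the test of a change from 0 h at any time.

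Rank 22 was seen in the mutant as 1 count in all 15 libraries, at 3 h, against 297 counts in Col-0 at 3 h, with 16.5, 28.6 and 28.6 CPM. The ratio in CPM was 261 and rests on that 1 count. This is the other feature called higher at no time in the mutant. Rank 43 differed from these in that it was present early in both genotypes. At 0.5 h it had 1.73, 2.11 and 2.97 CPM in Col-0 and 1.78, 0.625 and 3.69 CPM in the mutant. There the mutant was above its 0 h level, on 21 counts against 4 (edgeR adjusted p = 0.00673). This feature too had passed the filter on low counts through Col-0 alone. It then stood at 10.7, 8.61 and 16.3 CPM at 3 h in Col-0 and at 0, 0.296 and 0 CPM in the mutant. These were 141 counts against 1, a ratio in CPM of 124 that rests on 1 mutant count.

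**Figure D4:**
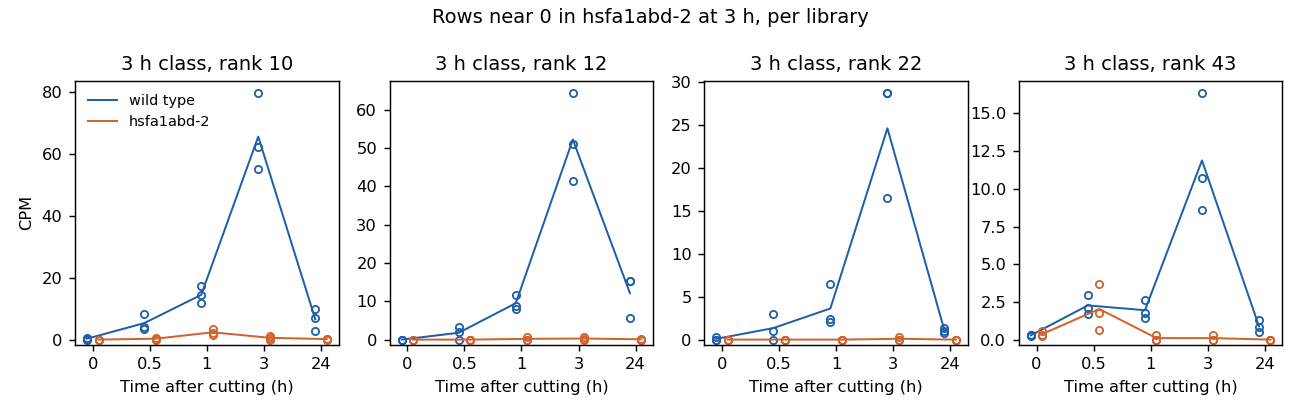
CPM per library (open circles) and group means (lines) against hours after cutting in Col-0 (blue) and hsfa1abd-2 (orange) for ranks 10, 12, 22 and 43 of the 3 h class. The wild-type libraries reach 55.2 to 79.6, 41.4 to 64.3, 16.5 to 28.6 and 8.61 to 16.3 CPM at 3 h, and no mutant library is above 1.18 CPM there.

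These 4 were also the members called lower in the mutant at 3 h. No p of a comparison with Col-0 is given for them. The reason is that their wild-type values at 3 h chose them and placed them in the class, and their low share of it then singled them out. All 4 passed the filter on low counts through Col-0 alone. Ranks 10 and 43 were above the filter's limit of 2.78 CPM in a single mutant library each, with 3.38 CPM at 1 h and 3.69 CPM at 0.5 h. Of 63 switched-on features at 10 CPM or more at 3 h in Col-0, these 4 were below 10% of it in the mutant. Over all 11875 tested features at that level at 3 h this held for 21 (0.177%). The other 17 had 0 h means of at least 0.630 CPM in Col-0, with a median of 7.90 CPM. Without the 4, the 3 h class held 1702 ± 212 CPM in Col-0 and 1559 ± 427 CPM in the mutant at 3 h (SD, n = 3 each).

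Calls between genotypes by the same edgeR test are given here by time. At 0.5 h, 4 of 116 were called lower and 1 higher in the mutant (2.13% and 1.54% of all tested features). At 1 h, 11 were lower and 1 higher (2.97% and 3.06%), at 3 h 4 were lower and 3 higher (0.955% and 1.04%), and at 24 h 15 were lower and 3 higher (10.3% and 10.6%). At the class's own time 17 were lower, 1 of the 0.5 h class, 5 of the 1 h class, 4 of the 3 h class and 7 of the 24 h class. The 1 that was higher at its own time was rank 42 of the 3 h class, with 31.8, 54.4 and 26 CPM in the mutant and 9.61, 19.6 and 6.53 CPM in Col-0 (1.57, SE 0.37, edgeR adjusted p = 0.0194). That call was lost without Col-0 replicate 1 (1.43) or 3 (1.28) of 3 h and without mutant replicate 2 of 3 h (1.21). Since wild-type levels chose the features, these counts describe them and nothing is read from them.

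The counts between genotypes turned on single libraries. The 4 lower at 0.5 h became 23 without mutant replicate 2 of 0.5 h and 7 without mutant replicate 3 of 3 h. They became 2 and 10 without Col-0 replicates 2 and 3 of 0.5 h, and 2 and 1 without mutant replicates 1 and 3 of 0.5 h. The 11 lower at 1 h became 3 and 7 without Col-0 replicates 1 and 3 of 1 h, and 3 and 5 without mutant replicates 2 and 3 of 1 h. The 4 lower at 3 h became 14 without mutant replicate 3 of 3 h. The 15 lower at 24 h became 7 without Col-0 replicate 2 of 24 h, and 9 and 8 without mutant replicates 2 and 3 of 24 h. The single call at 0 h was lost in 19 of 30 such fits. The 3 higher at 3 h became 0 without Col-0 replicate 1 of 3 h or mutant replicate 2 of 3 h, and the 3 higher at 24 h became 1 without Col-0 replicate 1 of 24 h, mutant replicate 3 of 1 h, or mutant replicate 2 or 3 of 24 h. The 1 higher at 0.5 h became 0 without Col-0 replicate 1 or 2, mutant replicate 1 or 3 of that time or mutant replicate 1 of 1 h, and 2 without replicate 3 of Col-0 or 2 of the mutant. The 1 higher at 1 h became 0 without Col-0 replicate 1 or 3 or mutant replicate 3 of that time, and 2 without mutant replicate 2 of 0.5 h or 1 of 0 h.

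The difference in change from 0 h was called for 3 of the 116, always with the smaller change in the mutant. None was called at 0.5 or 1 h by edgeR's quasi-likelihood test. DESeq2 also called none at these times. The shares of all tested features called lower and higher were 0.0810% and 0.00% at 0.5 h, and 0.0432% and 0.0162% at 1 h. At 3 h 2 members were called lower and at 24 h 2, against 0.221% and 1.45% of all tested features. None was called higher, against 0.259% and 1.71%. Rank 43 of the 3 h class was called at 3 h, rank 9 of the 0.5 h class at 24 h, and rank 15 of the 3 h class at both. For features at 0 counts in both genotypes at 0 h, such as rank 12 of the 3 h class, this difference has almost no precision.

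Near the limits of the rule, the 2 members with the highest 0 h means stood at 0.489 and 0.4915 CPM, and the 2 features left out at 0.533 CPM each, with later maxima of 27.6 and 14.1 CPM. The 2 members with the lowest maxima stood at 10.1 and 10.2 CPM. The 2 features left out by that limit reached 9.90 and 9.85 CPM in Col-0. In the mutant the first of these reached 10.8 CPM and the other 0.395 CPM.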

How the data were processed

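Transcripts were measured by RNA sequencing in 30 libraries, 2 genotypes at 5 times with 3 replicates each. A stranded kit for mRNA was used, per the labels' protocols; fastp, STAR and the TAIR10 genome are named in the submitters' processing notes. Tool versions, read counter, strand handling and gene models were not given in the sources used here, so how reads shared by paralogs, by overlapping genes or by both strands were assigned is unknown. The authors deposited raw counts per feature, not normalized.

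CPM used column sums. The test of counts was that of edgeR 4.0.16 (R 4.3.3, limma 3.58.1): filterByExpr (minimum count 10, minimum total 15, 18526 features), TMM, 1 robust quasi-likelihood model of 10 groups, Benjamini-Hochberg adjustment over all tested features within a contrast, threshold 0.05. Each SE is approximate: log2 fold over root F. The contrasts of mutant 24 h with earlier mutant times were added after the data were seen. Alternatives were DESeq2 1.42.0, RLE scaling, no filter, the compared libraries alone, a replicate block, each library left out, and other limits. The fits were tested on simulated data.

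The members, lists and tests were chosen with earlier results of these data known. Named features are, per class, the 3 highest, the 2 lowest and the 1 highest in mutant relative to wild type without overlap, those called in the difference in change, the 2 highest at mutant 0 h, those never called in the mutant, and those next to the limits. Gene lists listed for the case of named features could not be used, and the mutated genes could not be read. No replicate pair agreed within sampling noise (chi-square per degree of freedom 1.73 to 15.7). That replicates are biological is per the labels' protocols.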

Additional observations from a re-analysis of the deposited data

Results flagged for a closer look

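For 3 features the change from 0 h differed between genotypes by the interaction test of edgeR's quasi-likelihood fit, in 4 calls. The wild-type side of this test had chosen the features, so the values are descriptions.

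Rank 43 of the 3 h class differed by -6.88 on the log2 scale at 3 h (SE 1.55). No p is given, since its wild-type values at 3 h chose it and its low share of them singled it out. It also passed the filter on low counts through Col-0 alone. Its 0 h means were 0.283 ± 0.0233 CPM in Col-0 and 0.367 ± 0.180 CPM in the mutant (SD, n = 3 each), and the 3 h means were 11.9 and 0.0986 CPM. The call held in 22 of 30 fits without 1 library, with values of -8.80 to -6.41. It was lost without Col-0 replicate 2 (-6.87) or 3 (-6.84) of 0 h or 1 of 3 h (-6.96), and without mutant replicate 1 (-7.15), 2 (-6.98) or 3 (-6.46) of 0 h or 1 (-6.41) or 3 (-6.44) of 3 h.

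Rank 15 of the 3 h class differed by -5.07 at 3 h (SE 1.15, edgeR adjusted p = 0.0388) and by -4.56 at 24 h (SE 1.26, edgeR adjusted p = 0.0423). At 0 h it stood at 0.309, 0 and 0 CPM in Col-0 and at 5.79, 0.287 and 1.15 CPM in the mutant. The 3 h libraries of Col-0 had 37.1, 36.5 and 41 CPM and those of the mutant 20.6, 16.3 and 31.8 CPM. Without mutant replicate 1 of 0 h, the high library, the values were -3.33 and -2.82, and neither was called. The calls held in 16 and 21 of 30 fits without 1 library, with values of -6.85 to -3.33 and of -6.35 to -2.82.

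Rank 9 of the 0.5 h class differed by -4.43 at 24 h (SE 1.12, edgeR adjusted p = 0.0231). It stood at 0.103 ± 0.178 CPM at 0 h and 2.20 ± 0.673 CPM at 24 h in Col-0, while the mutant held 1.25 ± 0.599 and 1.04 ± 0.0547 CPM (SD, n = 3 each). The call held in 26 of 30 fits without 1 library and was lost without Col-0 replicate 2 (-3.98) or 3 (-3.95) and without mutant replicate 1 (-4.34) or 3 (-4.15), all of 0 h.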

How the results depend on the processing

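The counts of features called higher in the mutant than at mutant 0 h stayed within 1.5 times under every alternative run. Without 1 library, so did the sizes of the 4 classes. The rule gave 67 and 200 features with a 0 h limit of 0.25 and 1 CPM, 214 and 66 with a later limit of 5 and 20 CPM, 128 on TMM library sizes, and 111 to 125 without 1 wild-type library.

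Fits of the compared libraries alone gave 1 lower and 0 higher in the mutant at 0.5 h, 23 and 6 at 1 h, 0 higher at 3 h and 0 higher at 0 h, and 0 and 6 lower differences in change at 3 and 24 h. With no filter these were 0 higher at 0 and 0.5 h, 1 higher at 24 h and 1 lower difference in change at 3 and at 24 h. DESeq2 gave 2 higher at 1 h and 1 lower difference in change at 3 h, and RLE scaling 0 higher at 0 h. Deviations of same-numbered replicates correlated at r = -0.182 to 0.349 with a median of 0.006. Those of different numbers ran from -0.385 to 0.163 with a median of -0.007. No pair of groups was over 0.1 throughout for the same numbers, and in 3 of 24 pairs every library correlated best with its own number. With the replicate number as a block, 1 lower difference in change was called at 3 h in place of 2, and no other count moved by over 1.5 times.

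Without 1 library, features lower in the mutant numbered 1 to 23 at 0.5 h, 3 to 15 at 1 h, 4 to 14 at 3 h and 7 to 17 at 24 h, and higher ones 0 to 2 at 0, 0.5 and 1 h, 0 to 4 at 3 h and 1 to 4 at 24 h. Lower differences in change numbered 0 to 2 at 3 and at 24 h, and the median log2 ratio ran from -0.46 to -0.29 over all, -0.70 to -0.32 in the 0.5 h class, -0.43 to -0.33 in the 1 h class, -0.52 to -0.02 in the 3 h class and -0.66 to -0.47 in the 24 h class. The median ratio read in a wild-type replicate that had not chosen the features was -0.21 over all with replicate 3. By class it was -0.24 at 1 h and -0.28 at 24 h with replicate 3, -0.38 at 24 h with replicate 1 and 0.14 at 3 h with replicate 2. Features chosen in the mutant had medians of -0.13 over all, -0.16 at 1 h and 0.43 at 24 h. The causes of these differences were not tested. Of 2094 refits of the genotype, change and interaction values of named features, 1984 kept their side of the threshold, 86 lost the call and 24 gained it. None that was called in either fit changed sign. Sign changes of values without a call were not counted. The genotype difference at 24 h of rank 3 of the 24 h class, for example, ran from -0.42 to 0.06 without 1 library. At 0 h, 3 counts over a wild-type group set a limit of 0.281 CPM.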
